A study of Mus musculus with 6 samples.

Results

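The genes examined here encode the TGF-β ligands (Tgfb1, Tgfb2 and Tgfb3), their receptors (Tgfbr1, Tgfbr2 and Tgfbr3) and the latent TGF-β binding proteins (Ltbp1, Ltbp2, Ltbp3 and Ltbp4). They were chosen by name, as 10 of the 22367 protein-coding genes of the mouse mm9 annotation (GENCODE vM1), and each was read from 5 kb before to 5 kb after its annotated ends. The measurement was methylated DNA immunoprecipitation sequencing (MeDIP-seq), in which an antibody enriches methylated DNA fragments and a peak marks a stretch where such fragments pile up. All samples were mouse primary mesangial cells, the contractile support cells of the kidney glomerulus, grown in high glucose (25.5 mM) with 20% foetal bovine serum and used between passages 3 and 6. There were 3 control samples, and 3 TGF-β1 samples, which were kept with TGF-β1 at 10 ng/ml over 72 hours. The control samples carry no vehicle label, and the labels do not say whether the 3 samples of a group came from separate animals or cultures, and the study's methods call them biological replicates without more detail, so how far the spread between them is technical is unknown.

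The TGF-β ligands are secreted in a latent form, in which the mature dimer is held by its own propeptide, and the latent binding proteins tie that complex to extracellular matrix fibrils. Once released, a ligand binds the type II receptor, which recruits and phosphorylates the type I receptor, and the type I receptor in turn activates Smad transcription factors. In mesangial cells this signal is known for driving matrix production in glomerular scarring. DNA methylation in mammals falls mostly on cytosines of CpG dinucleotides, is usual in the bodies of genes and is usually low at CpG-rich starts.

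The control samples held 10319496, 9407103 and 11494356 reads and 81473, 90337 and 100449 peaks. The TGF-β1 samples held 12748318, 12634300 and 13291419 reads and 101629, 100379 and 105520 peaks. Every TGF-β1 sample was deeper than every control sample, so in counts of peaks depth and treatment cannot be told apart, and values scaled for reads or for peaks are given beside the totals. Merging peaks that overlapped between samples gave 170444 regions, and 157 of them belonged to a member gene. The identity of the cells could not be tested on expression, because a peak is not a transcript. Of 5 mesangial marker genes, 4 (Pdgfrb, Itga8, Des and Acta2) had no peak within 1 kb of a start in any sample and Gata3 had one in 1 sample. Of the markers of other kidney cells, 2 of 3 for podocytes, 1 of 3 for endothelium and 3 of 3 for tubule also lacked such a peak in every sample, so the list gives no test of the cell type.

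The sequences that carry the comparison between the groups are those of the 4 member regions with a peak in all 3 TGF-β1 samples and in no control sample. Each run covers 121 bases around the summit in mm9, read on the strand of the gene, and capitals mark CpG dinucleotides, the sites that carry methylation.
Tgfb2 TGF-β1-alone region, chr1:188501124-188501244, minus strand: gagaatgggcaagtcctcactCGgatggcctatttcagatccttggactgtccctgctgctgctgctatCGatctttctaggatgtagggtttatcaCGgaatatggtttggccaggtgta
Tgfb3 TGF-β1-alone region, chr12:87416255-87416375, minus strand: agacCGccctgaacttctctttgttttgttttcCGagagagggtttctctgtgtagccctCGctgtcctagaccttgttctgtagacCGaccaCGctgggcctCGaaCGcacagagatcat
Tgfbr3 TGF-β1-alone region, chr5:107693571-107693691, minus strand: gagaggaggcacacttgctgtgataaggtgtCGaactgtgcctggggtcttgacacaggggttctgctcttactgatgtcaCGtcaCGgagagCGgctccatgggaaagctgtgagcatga
Ltbp4 TGF-β1-alone region, chr7:28107320-28107440, minus strand: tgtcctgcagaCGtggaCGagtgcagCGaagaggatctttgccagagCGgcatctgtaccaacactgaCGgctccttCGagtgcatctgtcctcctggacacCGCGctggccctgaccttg
The 4 runs hold 3, 7, 4 and 8 CpGs. The Tgfb2, Tgfb3 and Tgfbr3 runs lie in introns and the Ltbp4 run lies in a coding exon.

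The next runs show sites with a peak in all 6 samples, from the region of highest pileup at Tgfb1, Tgfb2 and Tgfbr1, in the same notation. Pileup is the number of extended reads stacked over a peak's summit, and it is not scaled for depth.
Tgfb1 shared region, chr7:26482015-26482135, plus strand: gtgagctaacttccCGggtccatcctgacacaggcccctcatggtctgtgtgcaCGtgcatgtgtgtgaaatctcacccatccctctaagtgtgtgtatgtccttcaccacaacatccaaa
Tgfb2 shared region, chr1:188449375-188449495, minus strand: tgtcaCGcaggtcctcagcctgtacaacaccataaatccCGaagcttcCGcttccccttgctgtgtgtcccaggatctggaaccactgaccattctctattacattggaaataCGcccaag
Tgfbr1 shared region, chr4:47409234-47409354, plus strand: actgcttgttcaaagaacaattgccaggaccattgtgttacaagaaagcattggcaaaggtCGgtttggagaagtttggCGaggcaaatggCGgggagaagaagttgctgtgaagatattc
These runs hold 2, 4 and 3 CpGs. At Tgfb1 the run around the summit is poor in CpGs, while the whole region holds 17.

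The last runs are the 120 bases before the main start of 4 members, shown because no sample had a peak within 1 kb of any of them.
Tgfb1 upstream of the main start, chr7:26471901-26472020, plus strand: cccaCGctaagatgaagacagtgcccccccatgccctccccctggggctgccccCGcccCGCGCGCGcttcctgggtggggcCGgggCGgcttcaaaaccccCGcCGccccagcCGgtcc
Tgfb3 upstream of the main start, chr12:87419992-87420111, minus strand: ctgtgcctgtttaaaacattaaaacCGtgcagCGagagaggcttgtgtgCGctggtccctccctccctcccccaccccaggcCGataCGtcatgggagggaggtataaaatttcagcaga
Tgfbr1 upstream of the main start, chr4:47365974-47366093, plus strand: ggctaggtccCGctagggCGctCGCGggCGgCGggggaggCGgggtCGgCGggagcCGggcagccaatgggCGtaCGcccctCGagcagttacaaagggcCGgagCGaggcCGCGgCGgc
Tgfbr2 upstream of the main start, chr9:116084384-116084503, minus strand: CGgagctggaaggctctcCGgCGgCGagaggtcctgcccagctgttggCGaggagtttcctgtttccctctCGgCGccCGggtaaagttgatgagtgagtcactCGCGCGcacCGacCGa
They hold 11, 5, 18 and 13 CpGs, and with the exception of Tgfb3 they are denser in CpGs than any of the peak runs above.

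Every member had peaks in all 6 samples with the exception of Ltbp3, which had none in control replicate 2, and most peaks lay inside the genes and few at their starts. The 3 control samples had 76, 74 and 88 peaks at the members, and the 3 TGF-β1 samples had 91, 87 and 100. The highest control sample lay just above the lowest TGF-β1 sample, so the groups overlapped (79.3 ± 7.57 against 92.7 ± 6.66 peaks, SD, n = 3 each, ratio 1.17). Per 1000000 reads the order of the means turned, with 7.36, 7.87 and 7.66 in the controls and 7.14, 6.89 and 7.52 with TGF-β1 (ratio 0.941). Per 10000 peaks of the same sample the means were 8.76 and 9.03 (ratio 1.03). The direction of the difference over the members thus depended on the scaling, and the part of depth in it was not tested.

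**Figure D1:**
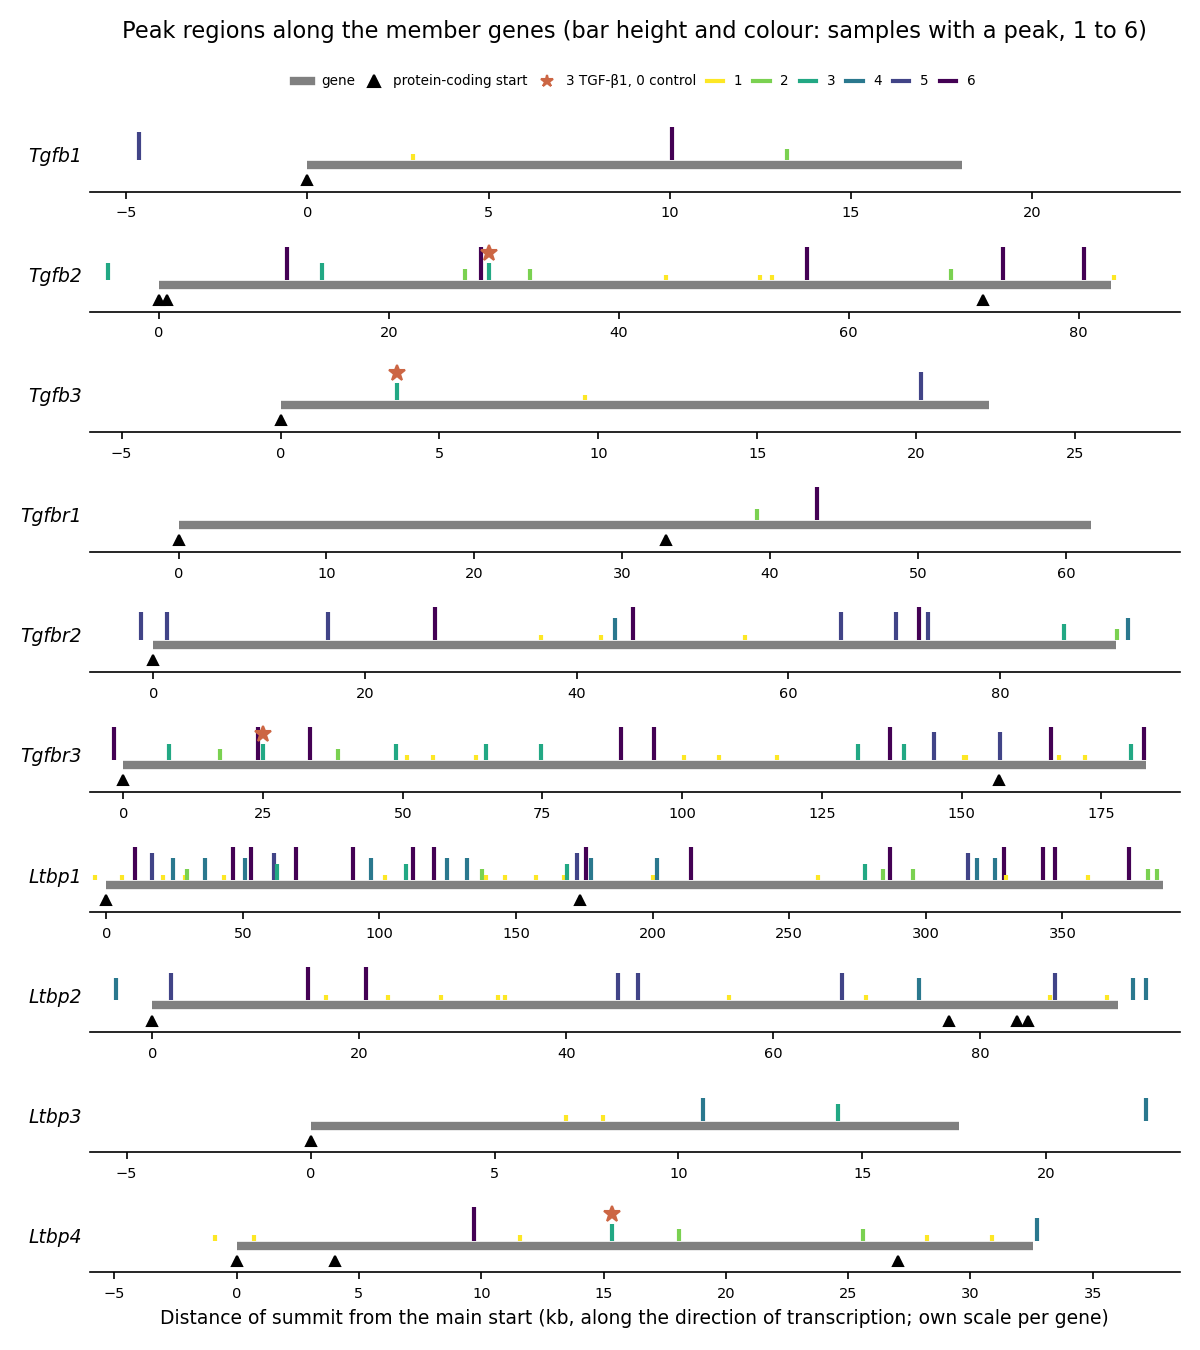
Position of each of the 157 peak regions along the 10 genes, as the distance of the summit from the main start in kb, each gene on its own scale. Bar height and colour give the number of samples with a peak (1 to 6), triangles mark protein-coding starts and stars the 4 regions called in the 3 TGF-β1 samples alone; most bars stand inside the genes and away from the triangles.

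The gene-body position of the calls was common to the whole set. Of the 157 regions, 119 (75.8%) had their summit in an intron, 17 (10.8%) in a coding exon and 4 within 1 kb of a start. Coding exons made up 2.73% of the bases of the member windows, so peaks were denser there than in the windows as a whole. The same was seen over all protein-coding genes, where coding exons made up 3.11% of the window bases and held 13.2% of the region summits. Tgfbr2 had 4 coding-exon regions, Ltbp2 had 3, and Tgfb2, Tgfbr3 and Ltbp4 had 2 each.

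Peaks per 10 kb of window put the members on one scale. Tgfbr2 was highest at 1.06 peaks per 10 kb over the 6 samples, followed by Ltbp2 (1.0), Tgfb2 (0.880), Ltbp4 (0.862), Tgfb1 (0.831), Tgfbr3 (0.829), Ltbp1 (0.764), Ltbp3 (0.603), Tgfb3 (0.464) and Tgfbr1 (0.186). The ranges over the 6 samples of each pair of neighbours in this order overlapped down to Tgfb3, and those of Tgfb3 (0.310 to 0.619) and Tgfbr1 (0.139 to 0.279) did not. The order differed between the groups: with TGF-β1 the highest means were those of Ltbp2 (1.13), Ltbp4 (1.097), Tgfb1 (1.07) and Tgfbr2 (1.06), and in the controls those of Tgfbr2 (1.06), Ltbp2 (0.871), Tgfb2 (0.826) and Ltbp1 (0.756). The median of all protein-coding genes was 0.517, and 8 of the 10 members lay above it, with Tgfb3 (percentile 46.6) and Tgfbr1 (percentile 29.3) below. The median of the genes with a peak was 0.660, and 7 members lay above it. Per 1000 CpGs of the window the members split: Tgfbr2, Ltbp1, Ltbp2, Tgfb2 and Tgfbr3 had 7.97, 7.64, 7.43, 7.14 and 6.88 peaks. The other members had between 2.59 (Tgfbr1) and 4.07 (Tgfb1), below the median of 4.20 of all genes.

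Tgfb1 encodes the ligand that was added to the cultures. The gene lies at chr7:26472021-26490096 on the plus strand. It had 1, 2 and 2 peaks in the controls and 3, 2 and 4 with TGF-β1. The groups shared the value 2 and did not separate (exact two-sided permutation p = 0.3). With 3 samples against 3 this test cannot give a p below 0.1, so a single gene cannot pass 0.05. Of its 4 regions 1, in intron 4 at chr7:26481694-26482256, was called in all 6 samples, with pileups of 23, 33 and 35 in the controls and 20, 28 and 28 with TGF-β1. One of its regions had its summit inside a neighbouring gene, B9d2.

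Tgfb2 encodes the second ligand, the one with low affinity for the type II receptor on its own. It lies at chr1:188447065-188529871 on the minus strand. It had 8, 7 and 8 peaks in the controls and 8, 9 and 9 with TGF-β1, so the groups met at 8 (exact permutation p = 0.3). Within the gene alone, without the flanks, they no longer met (ratio 1.25), while the ratio was 0.910 per 1000000 reads and 0.994 per 10000 peaks. Of its 15 regions, 5 were called in every sample. The strongest, in coding exon 7 at chr1:188449141-188449655, had pileups of 45, 36 and 35 in the controls and 38, 42 and 49 with TGF-β1, with no separation of the groups.

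Tgfb3 encodes the third ligand and lies at chr12:87397694-87419991 on the minus strand. It had 1 peak in each control and 2 in each TGF-β1 sample (exact permutation p = 0.1, the lowest possible). It was the 1 member of 10 whose TGF-β1 samples all lay above all controls, while among the 17949 protein-coding genes with a peak the same held for 3.91%. No member lay below in that way, against 0.345% of those genes. Among the 5469 genes with a mean of 1 to 2 peaks, as here, 1.85% separated upwards. None of its 3 regions was called in all 6 samples. The intron 6 region was called in control replicates 1 and 3 and in the TGF-β1 samples. The peak of control replicate 2 lay in coding exon 3 (pileup 10). The second peak of each TGF-β1 sample was the intron 1 region called in those samples alone, so both results rest on the same calls. Per 1000000 reads the ratio was 1.60, and the groups still did not overlap.

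Tgfbr1 encodes the type I receptor kinase, which phosphorylates the Smad proteins, and lies at chr4:47366094-47427803 on the plus strand. It had 1 peak in each control and 2, 1 and 2 with TGF-β1, and TGF-β1 replicate 2 equalled the controls (exact permutation p = 0.4). The 1 region shared by all 6 samples lay in coding exon 4 at chr4:47409141-47409532. Its pileups were 20, 23 and 26 in the controls and 25, 25 and 22 with TGF-β1, an overlap of the groups. This sparse gene of 61.7 kb was the member with the fewest peaks per 10 kb.

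Tgfbr2 encodes the type II receptor kinase, which binds the ligand first, and lies at chr9:115993415-116084383 on the minus strand. Its peaks numbered 9, 11 and 12 in the controls and 11, 9 and 12 with TGF-β1, the same values in another order (exact permutation p = 1). Per 1000000 reads the ratio of its means was 0.803, with overlap of the groups. Its strongest shared region, in intron 2 at chr9:116057495-116058203, had pileups of 25, 24 and 37 in the controls and 25, 27 and 30 with TGF-β1. Control replicate 3 was the highest of the 6 there. The raw pileups overlapped, while the log2 pileups centred on the sample median were 0.12, 0.06 and 0.45 in the controls and -0.16, 0 and 0 with TGF-β1 and did not.

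Tgfbr3 encodes betaglycan, the co-receptor that presents ligand to the type II receptor, and lies at chr5:107535589-107718648 on the minus strand. It had 16, 13 and 13 peaks in the controls and 16, 17 and 21 with TGF-β1 (ratio 1.29, exact permutation p = 0.2). Control replicate 1 tied with TGF-β1 replicate 1, and without either of these samples the groups no longer met in unscaled counts. Per 1000000 reads of all samples the ratio was 1.03 (exact permutation p = 0.9). Of its 30 regions, 8 were called in every sample. The strongest, in the untranslated part of exon 17 at chr5:107535761-107536219, had pileups of 42, 49 and 53 in the controls and 51, 42 and 60 with TGF-β1, the highest mean of any shared member region.

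Ltbp1 encodes the binding protein best known for anchoring latent TGF-β in the matrix. At chr17:75404908-75791852, on the plus strand, it was the longest member (386.9 kb) and held 52 of the 157 regions. Its peaks numbered 31, 25 and 34 in the controls and 31, 30 and 31 with TGF-β1 (ratio 1.02, exact permutation p = 1). The controls held both the lowest and the highest value, and without control replicate 2 the ratio was 0.944. Per 1000000 reads all 3 TGF-β1 samples lay below all controls (ratio 0.828), as they did at 14.7% of all genes with a peak. Of its regions 14 were called in all 6 samples. The strongest, in intron 24 at chr17:75733135-75733562, had pileups of 29, 36 and 39 in the controls and 40, 37 and 46 with TGF-β1, an overlap of 37 with 39.

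Ltbp2 encodes a fibril-associated family member that does not bind latent TGF-β, and lies at chr12:86124162-86217482 on the minus strand. It had 6, 10 and 11 peaks in the controls and 12, 12 and 11 with TGF-β1 (means 9 and 11.7, exact permutation p = 0.2). The low value was control replicate 1, the sample with the fewest peaks in all. Ltbp3, at chr19:5740904-5758532 on the plus strand, encodes a binding protein that carries latent TGF-β. It had 1, 0 and 4 peaks in the controls and 2, 1 and 2 with TGF-β1 (exact permutation p = 1), and the spread among the controls covered every TGF-β1 value. None of its 5 regions was called in all 6 samples. Without control replicate 3 the ratio of its means was 3.33, without control replicate 2 it was 0.667, and per 1000000 reads of all samples it was 0.869. Ltbp4, at chr7:28090155-28122711 on the minus strand, encodes a binding protein of elastic fibres. It had 2, 4 and 2 peaks in the controls and 4, 4 and 6 with TGF-β1 (ratio 1.75, exact permutation p = 0.3), and control replicate 2 equalled the lower TGF-β1 samples.

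**Figure D2:**
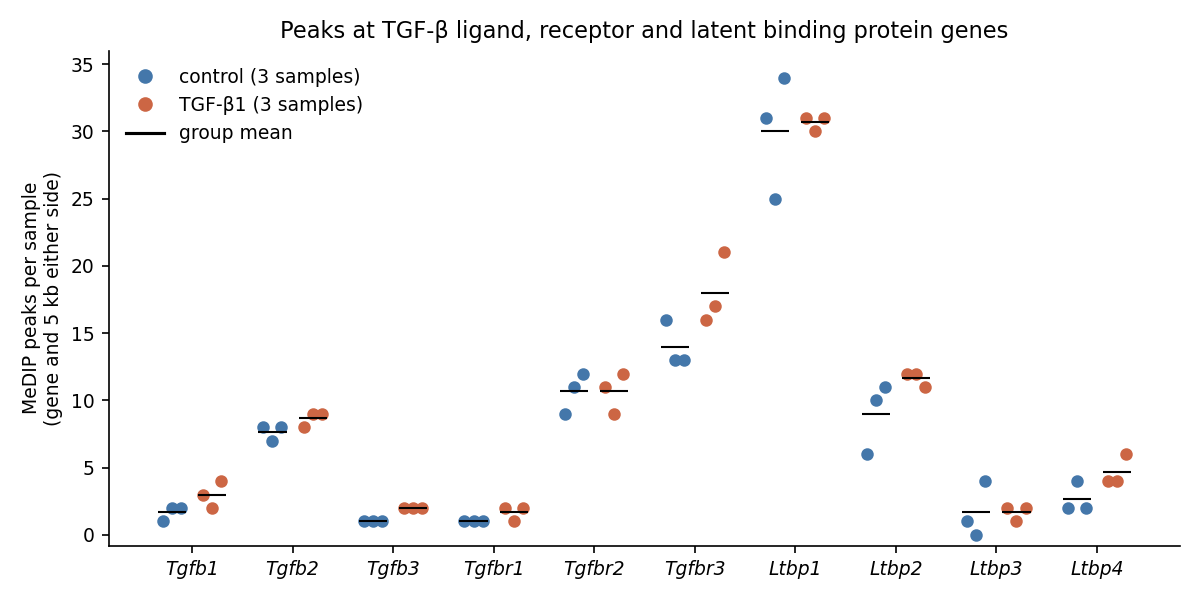
Number of MeDIP peaks per sample (y axis) at each of the 10 genes with 5 kb on either side (x axis), as 1 point per sample with a line at the mean of each group of 3. The points of the groups stand clear of each other at Tgfb3 alone.

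By role, the ligands had 10, 10 and 11 peaks in the controls and 13, 13 and 15 with TGF-β1. The receptors had 26, 25 and 26 in the controls and 29, 27 and 35 with TGF-β1. The latent binding proteins had 40, 39 and 51 in the controls and 49, 47 and 50 with TGF-β1. In these counts, which are not scaled for depth, the ligands and the receptors separated and the latent binding proteins did not. Of single genes with a peak 3.91% separated upwards in such counts, and no share for sums of genes is given. Per 1000000 reads neither separation remained: the ligands had 0.969, 1.06 and 0.957 in the controls and 1.02, 1.03 and 1.13 with TGF-β1, and the receptors 2.52, 2.66 and 2.26 against 2.27, 2.14 and 2.63. The latent binding proteins had 3.88, 4.15 and 4.44 in the controls and 3.84, 3.72 and 3.76 with TGF-β1. On that scale all their TGF-β1 samples lay below all controls (ratio 0.909), as they did at 14.7% of single genes with a peak. Ltbp1 held most of the peaks in this sum, while Ltbp2 and Ltbp4 had ratios of 1.045 and 1.36 per 1000000 reads. In unscaled counts 8 members had the higher mean with TGF-β1 and the other two (Tgfbr2 and Ltbp3) had equal means, while 57.0% of all genes with a peak had the higher mean. Per 1000000 reads 6 members had the higher mean and 4 (Tgfb2, Tgfbr2, Ltbp1 and Ltbp3) the lower one, against 36.1% and 63.9% of all genes with a peak.

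Regions called in one group alone were the next comparison. Of the 157 member regions 4 (2.55%) had a peak in all 3 TGF-β1 samples and none in the controls, while the share among all 170444 regions was 0.948%. No member region had the reverse pattern, which 0.233% of all regions showed. In Tgfb2 the region was chr1:188501032-188501377 in intron 1, with pileups of 26, 34 and 39. In Tgfb3 it was chr12:87416082-87416501 in intron 1, 3676 bp from the start, with pileups of 24, 23 and 20. These calls are the ones that separated the peak counts of Tgfb3 above, and so are not a second result. In Tgfbr3 it was chr5:107693467-107693799 in intron 2, with pileups of 24, 27 and 28. In Ltbp4 it was chr7:28107109-28107852 in coding exon 21 of 33, with pileups of 14, 20 and 16, where the lowest pileup called anywhere in these samples was 9, 9 and 10. A region without a call is not a region without methylation, since the lists hold only what passed the caller's threshold.

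The calls differed in strength. Fold enrichment, the pileup over the local background, was 8.48, 8.24 and 6.84 at the Tgfb3 region. At the Tgfb2 region it was 4.45, 5.42 and 5.99, and at the Tgfbr3 region 4.80, 5.49 and 4.65. It was 3.45, 4.18 and 3.89 at the Ltbp4 region. With a minimum of 5 the Tgfb3 region alone was kept in all 3 TGF-β1 samples, and the count of such regions went from 4 to 1. Repeat content and mappability of these regions, that of Tgfb3 included, were not checked.

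Calls in unequal numbers of samples were more frequent on the TGF-β1 side, at the members as in the whole genome. More TGF-β1 than control samples had a peak in 64 member regions (40.8%), against 37.7% of all regions, and fewer had one in 35 (22.3%), against 22.5% of all regions. Ltbp1 held examples of both: intron 2 at chr17:75440888-75441291 was called in the 3 controls (24, 26 and 32) and in TGF-β1 replicate 3 alone of the treated samples (26). Intron 3 at chr17:75529258-75529686 was called in the 3 TGF-β1 samples (28, 26 and 33) and in control replicate 3 alone of the controls (25). At Ltbp3, intron 15 at chr19:5751437-5751809 was called in control replicate 3 (31) and in the TGF-β1 samples (31, 27 and 31), with a control pileup equal to the highest treated ones.

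Regions called in all 6 samples allow the level to be compared. There were 35 at the members (22.3% of 157), against 24.5% of all regions, and 49 member regions (31.2%) were called in 1 sample, against 27.3% of all regions. The log2 of the pileup was centred on each sample's median and fitted with limma over all 41744 regions called in every sample, with Benjamini-Hochberg adjustment. No member region of the 35 passed an adjusted p of 0.05 (the smallest was 0.999), nor did any region of the genome, that is 0% of 41744. At an unadjusted p below 0.05 there was 1 member region, against 4.18% of all regions. The member differences ran from -0.48 to 0.34 on the log2 scale with a median of 0.02 (all regions -0.00), 19 higher and 16 lower with TGF-β1. The median SE was 0.210 and the median half-width of the 95% intervals 0.43, and over the 35 regions the intervals reached from -0.91 to 0.74.

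The member region with the smallest p was the Tgfb1 intron 4 region described above. Its centred pileup was lower with TGF-β1 by a log2 difference of -0.48 (SE 0.213, limma unadjusted p = 0.0322), and its raw pileups overlapped between the groups. In coding exon 4 of Tgfbr2, at chr9:116038815-116039270, the pileups were 24, 26 and 30 in the controls and 25, 22 and 26 with TGF-β1 (log2 difference -0.35, SE 0.203). The raw values overlapped, while the centred log2 values were 0.06, 0.18 and 0.15 in the controls and -0.16, -0.30 and -0.21 with TGF-β1 and did not. In intron 2 of Ltbp1, at chr17:75415182-75415623, the controls had 26, 24 and 24 and the TGF-β1 samples 40, 31 and 39 (log2 difference 0.34, SE 0.197). There all 3 TGF-β1 samples lay above all controls, both in raw pileup and in centred log2 pileup (0.18, 0.06 and -0.17 against 0.51, 0.20 and 0.38), and the limma interval held 0. On the centred scale 1 of the 35 member regions, this one, had all TGF-β1 samples above all controls, against 4.33% of the 41744 regions. All TGF-β1 samples lay below all controls in 3 of the 35, against 4.95% of the 41744, and these were the 3 shared regions of Tgfbr2, in introns 2 and 6 and coding exon 4. Intron 2 of Ltbp2, at chr12:86196596-86197052, had 20, 30 and 29 in the controls and 31, 34 and 40 with TGF-β1, so the raw pileups of the groups stood 1 apart. Centred for the depth of the samples they overlapped (-0.20, 0.38 and 0.10 against 0.15, 0.33 and 0.42 on the log2 scale). Intron 10 of Ltbp4, at chr7:28112626-28113412, had 19, 16 and 22 in the controls and 16, 16 and 21 with TGF-β1.

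**Figure D3:**
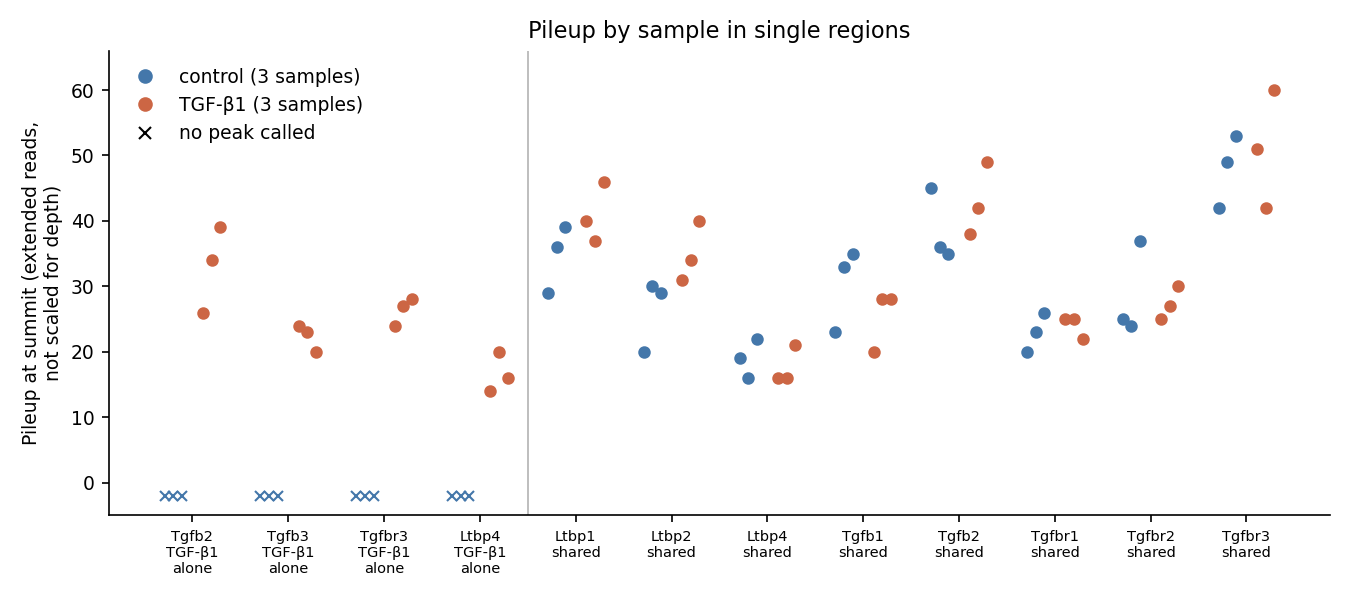
Pileup per sample (y axis, extended reads at the summit, not scaled for depth) in the 4 regions called in the TGF-β1 samples alone (left; crosses mark samples with no call) and in the strongest shared region of 8 genes (right). Points are single samples, and at the shared regions the groups overlap in this unscaled pileup with the exception of Ltbp2; once centred on the sample median, those of Ltbp2 overlap and those of Tgfbr2 do not.

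**Figure D4:**
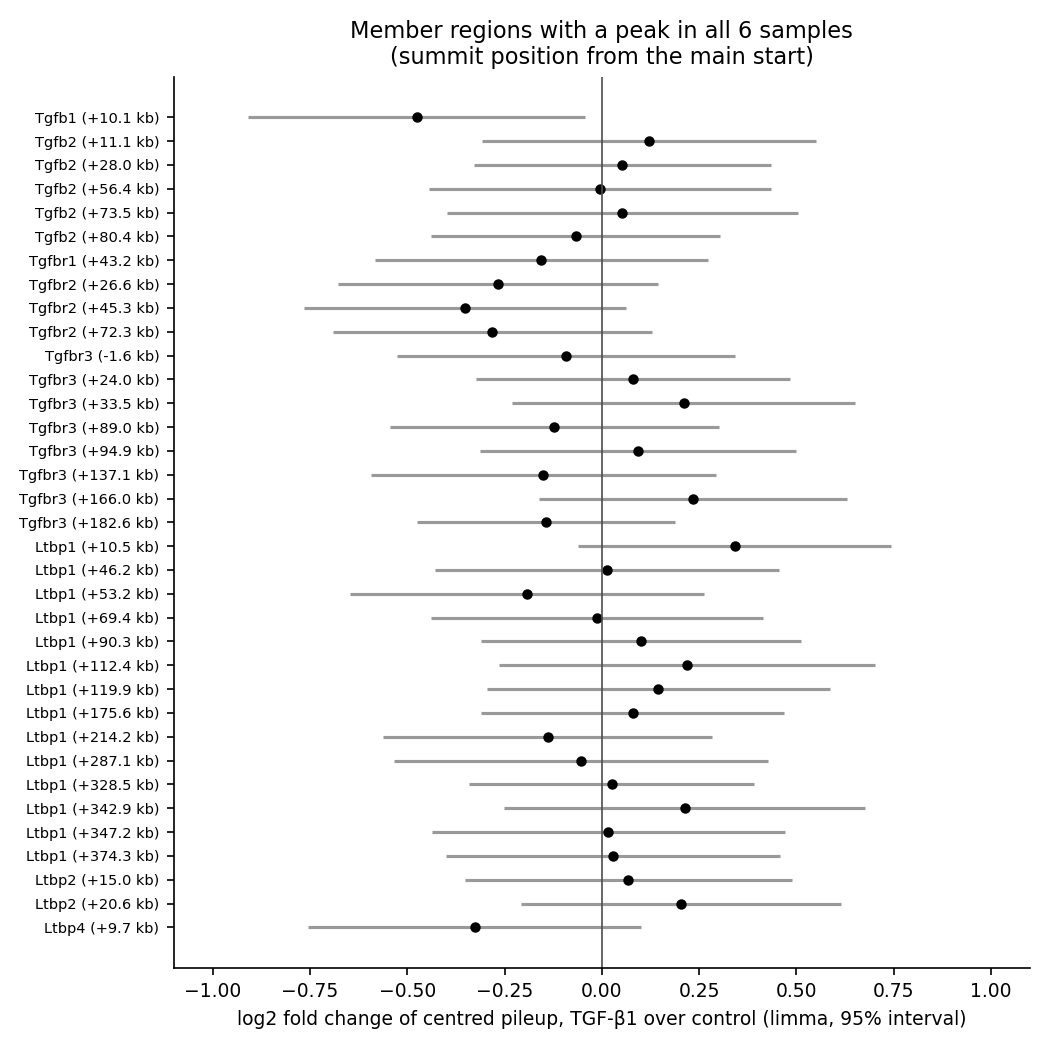
log2 difference of centred pileup between TGF-β1 and control samples (x axis; points, with 95% intervals from limma) in the 35 member regions with a peak in all 6 samples, named by gene and distance of the summit from the main start. The interval of the Tgfb1 region alone leaves out 0, before adjustment.

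The starts of the member genes were largely without peaks. Of the 10 main starts, 7 were CpG-rich (a CpG observed over expected ratio of at least 0.6 in the surrounding 1 kb), and none of these had a summit within 1 kb in any sample. Tgfbr1 had the densest start, with 113 CpGs in 1 kb (ratio 0.861), and the nearest summit lay 38012 bp away. The start of Tgfbr2 (83 CpGs, ratio 0.816) had its nearest summit at 1116 bp and that of Tgfbr3 (72 CpGs, ratio 0.735) at 1589 bp. Next came Ltbp2 (71 CpGs, 1740 bp), Tgfb1 (75 CpGs, 2923 bp), Tgfb3 (48 CpGs, 3676 bp) and Ltbp1 (77 CpGs, 4054 bp). The CpG-poorer starts of Tgfb2 (42 CpGs, 4387 bp) and Ltbp3 (13 CpGs, 6937 bp) had none near them either. Ltbp4 (42 CpGs, ratio 0.476) was the exception, with a summit 692 bp away in TGF-β1 replicate 1 (pileup 13) and another 905 bp away in TGF-β1 replicate 3 (pileup 17).

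Peaks within 1 kb of a start occurred mainly at internal starts of shorter transcripts. A Tgfbr3 region at chr5:107561525-107561934, near the start of transcript Tgfbr3-004, had pileups of 13 and 12 in control replicates 1 and 2, no call in control replicate 3, and 22, 23 and 26 with TGF-β1. Every called TGF-β1 value lay above the called controls there. An Ltbp1 region at chr17:75577040-75577386, 960 bp before the start of transcript Ltbp1-002, had 31, 33 and 30 in the controls, 29 and 34 in TGF-β1 replicates 1 and 2, and no call in replicate 3. In all, the members had 2, 2 and 1 such peaks in the controls and 3, 2 and 2 with TGF-β1, an overlap of the groups. They fell on 3 of the 10 members, and among all protein-coding genes 20.8% had a peak within 1 kb of a start in any sample. A CpG-rich main start had one in 8.96% of genes and another main start in 18.1%.

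**Figure D5:**
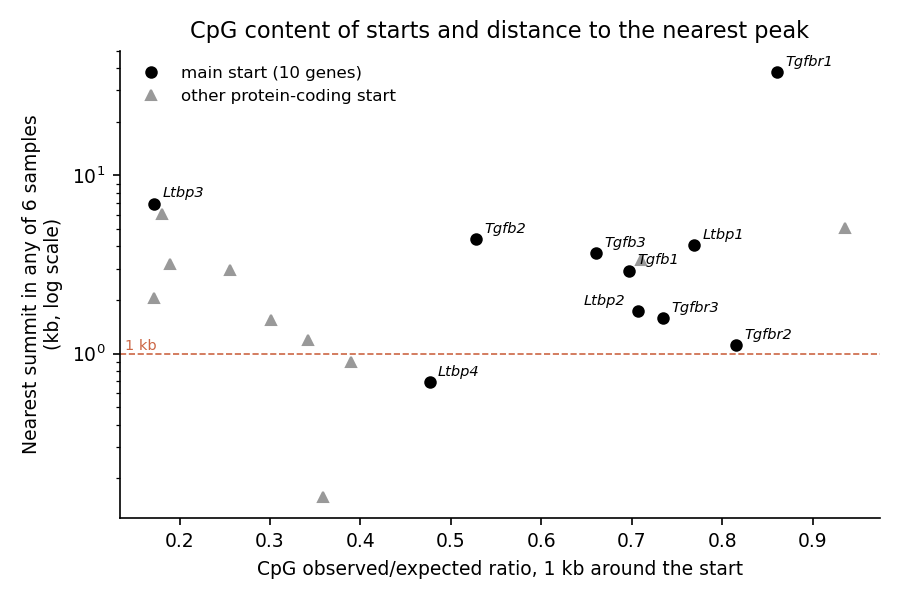
CpG observed over expected ratio in 1 kb around each start (x axis) against the distance to the nearest summit in any of the 6 samples (y axis, kb, log scale), with circles for the 10 main starts and triangles for other protein-coding starts. Ltbp4 is the 1 main start under the 1 kb line.

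Other genes of the pathway were taken from a list of 20, which covers release and activation of the ligands, co-receptors and extracellular inhibitors, and also a further type I receptor (Acvrl1) and a pair of intracellular proteins (Tgfbrap1 and Tgfb1i1). In number of peaks 1 of the 20 separated upwards and none downwards, against the 3.91% and 0.345% given above. It was Itgb6, an integrin subunit that activates latent TGF-β, with 5, 7 and 7 peaks in the controls and 9, 8 and 9 with TGF-β1. Per 1000000 reads none of the 20 separated upwards and 2 (Thbs1 and Itgb1) downwards, against the 14.7% given above. On that scale the groups of Itgb6 overlapped (0.485, 0.744 and 0.609 against 0.706, 0.633 and 0.677). Fbn1, encoding the fibrillin to which latent binding proteins attach, had 17, 17 and 20 in the controls and 24, 19 and 15 with TGF-β1, with overlap. Fbn1 and Itgav, an integrin subunit, had a peak within 1 kb of a start in all 6 samples, and Lrrc32 and Nrros, cell-surface tethers of latent TGF-β, had one in 5. That is 4 of 20 in any sample and 2 of 20 in all 6, against 20.8% and 5.32% of all protein-coding genes. Bambi, a decoy receptor, and Bgn, a matrix proteoglycan, had no peak in any sample.

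Base composition and library moved with some of these counts. The median GC of member peaks was 46.5% in control replicate 1 and between 49.3% and 49.8% in the other samples. That control called 34.6% of the member regions with a GC above their median. Control replicates 2 and 3 called 50% and 52.6% of them and the TGF-β1 samples 57.7%, 57.7% and 65.4%, so the groups did not overlap. The same shares over all regions are not given, and these are not scaled for depth. Of the member regions with low GC, control replicate 1 called 62.0%. The other controls called 45.6% and 59.5% of those, and the TGF-β1 samples 59.5%, 54.4% and 62.0%, an overlap of the groups. The low count at Ltbp2 came from control replicate 1, and the role of GC in the member counts was not tested.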

How the data were processed

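MeDIP-seq peak lists of 6 mouse samples (3 control, 3 TGF-β1) were analysed. Per the file headers and the study's methods, the authors aligned reads to mm9 with BWA and called peaks in each sample separately with MACS2 (2.1.0.20150731), with a q cutoff of 0.01, 1 read kept per position and no input library. The deposited pileup signal is the number of extended reads at a summit, unscaled for depth. MACS2 also gave each deposited peak a fold enrichment, its pileup over the local background in that sample, and -log10 p and -log10 q values. Reads per region were not used here, so no count test was possible.

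Peaks overlapping by at least 1 bp were joined across samples (bedtools 2.31.1 as a check). Genes came from GENCODE vM1, with peaks assigned by summit to the gene and 5 kb on either side. An exact permutation test (two-sided) was applied to the peaks per gene, and the highest log2 pileup of each region called in all 6 samples, centred on the sample median, was fitted with limma 3.58.1 (R 4.3.3) with Benjamini-Hochberg adjustment over 41744 regions. The limma step was tested on simulated data, but the outcome is not given here and no result rests on it. Depth ran from 9407103 to 13291419 reads per sample, and the correlation of log2 pileup between samples from 0.682 to 0.804.

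All 10 members are named, with these regions: the strongest shared region of the 8 members that had one, those within 1 kb of a start, those called in one group alone, and the 3 with the smallest limma p. Regions called in unequal numbers of samples, and the regions separated on the centred scale, were named after their values were seen. The members and lists were chosen with earlier results of these data known. Alternatives covered thresholds, flanks, scaling, joining, imputation, left-out samples and a replicate block. Sequences were read from the mm9 genome.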

Additional observations from a re-analysis of the deposited data

How the results depend on the processing

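Depth limits these results: the lists hold only called peaks, the control libraries are shallower, and with 3 samples a group the exact test cannot pass 0.05. Repeats and mappability were not used here. Of 140 ratios of peaks at single genes under an alternative, 105 kept their direction, 7 reversed, and 28 belong to Tgfbr2 and Ltbp3, whose means were equal (0.667 to 3.33 at Ltbp3). The 140 include 10 of the replicate block, which could not change, since a block leaves group means as they are. All 38 log2 differences of the 3 named regions, picked for the smallest limma p, kept their sign, and those of the replicate block could not change. The median log2 difference over the member regions, near 0, changed sign in 5 of 13.

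With a fold enrichment of at least 5 the ratio of peaks was 0.8 at Tgfb1 and 0.974 at Ltbp1, 2 members (Tgfb2 and Tgfb3) had all TGF-β1 samples above all controls, 1 region was called in the TGF-β1 samples alone, and 0 shared member regions had a limma unadjusted p below 0.05. Without flanks 2 members separated upwards. Per 1000000 reads the ratio was 0.803 at Tgfbr2, 0.869 at Ltbp3, 0.910 at Tgfb2, 0.828 at Ltbp1 and 0.941 over the members, 1 member (Ltbp1) separated downwards, 2 member regions had an unadjusted p below 0.05 and the difference in median log2 pileup was -0.0489. Per 10000 peaks 6 members had the higher mean with TGF-β1 and 4 the lower one. The ratio was 1.76 at Tgfb3, 0.994 at Tgfb2, 0.902 at Ltbp1 and 1.03 over the members. With fold enrichment in place of pileup 1 region of the genome, at none of the members, passed an adjusted p of 0.05 in limma, and the median difference was -0.0796, against 0.04 for the centred pileup. The cause of these shifts was not tested. A window from 2 kb before to 500 bp after a start raised the mean number of start peaks from 2 to 4.

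When regions called in at least 3 samples were fitted, with an uncalled sample set to its lowest pileup, 8 of 92 member regions had an unadjusted p below 0.05, against 4.05% of 98681 regions, and none passed adjustment (smallest 0.979). In 7 of the 8, the 4 regions called in the TGF-β1 samples alone among them, at least 1 sample had no call, so the difference rests in part on the value given to it. The exception is the Tgfb1 intron 4 region.

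Leaving out each sample in turn gave 2 to 3 members separated upwards, since fewer samples overlap less. With a sample left out, shares over all genes and regions are not given. The counts in this paragraph thus have no background beside them and are no result about the members. Tgfb3 was joined by Tgfbr3 or Ltbp4 or Ltbp2 without control replicate 1, 2 or 3, by Tgfb2 and Tgfbr3 without TGF-β1 replicate 1, by Tgfb1 and Tgfbr1 without TGF-β1 replicate 2, and by Ltbp2 without TGF-β1 replicate 3. The ratio at Ltbp1 ran from 0.944 (without control replicate 2) to 1.095. Regions called in the TGF-β1 samples alone numbered 4 to 7 (7 without TGF-β1 replicate 2) and in the control samples alone 0 to 2 (2 without control replicate 2). Member regions with a limma unadjusted p below 0.05 numbered 0 (without TGF-β1 replicate 1) to 2 (without control replicate 1).

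The labels number the samples 1 to 3 in both groups. Deviations from the group means correlated at -0.0445 on average between same-numbered samples (3 pairs, -0.130 to 0.0432). Between others the average was 0.0223 (6 pairs, -0.124 to 0.168). These ranges overlapped, so no pairing by number was seen. So few correlations cannot decide whether same-numbered samples were handled together, and the labels do not say. With a replicate block 1 member, Tgfb3, was higher in all 3 same-numbered pairs, which its full separation fixes, and 0 member regions passed an adjusted p of 0.05 in limma (1 at an unadjusted p below 0.05). At Tgfb3 the sign-flip p was 0.25, the smallest that 3 pairs allow.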
